A study of Mus musculus with 7 samples.

Results

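The globin genes listed for the E11.5 outflow tract (OFT) numbered 7, out of 14732 listed genes, and were taken by name: the embryonic genes *Hba-x*, *Hbb-y* and *Hbb-bh1* and the adult-type genes *Hba-a1*, *Hba-a2*, *Hbb-bt* and *Hbb-bs*. All 7 were above the filter on low values, and every one had reads in every pool. The OFT, the vessel that joins the embryonic heart to the aortic sac, was dissected from mouse embryos at embryonic day (E) 11.5, and polyadenylated RNA of pooled tissue was sequenced. There were 3 control pools of wild-type embryos (replicates 3, 4 and 5) and 4 pools of *Gata6STOP/+* embryos (replicates 1, 3, 4 and 5), and the genotype is the one difference the labels give. The study's methods describe equal numbers of pools per genotype, so the labels, which were followed, hold more *Gata6STOP/+* pools than the methods describe. *Gata6STOP/+* embryos are heterozygous for a CRISPR-Cas9 frameshift allele of *Gata6*, which codes for a zinc finger transcription factor of the heart, with a premature stop codon in exon 2. The allele comes from a selected founder backcrossed to C57BL/6, every cell of the embryo carries it, and each pool joined tissue of several embryos. The labels give neither sex nor litter, so *P*-values measure the spread between pools and may mix both.

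Hemoglobin is a tetramer with a pair of alpha-like and a pair of beta-like globin chains, each of which holds a heme group. In the mouse, the primitive red cells that come from the yolk sac and circulate at midgestation make the embryonic chains zeta (*Hba-x*), epsilon-y (*Hbb-y*) and beta-h1 (*Hbb-bh1*) together with adult alpha chains, and the definitive red cells of the fetal liver make adult alpha and adult beta chains. Globin mRNA is very abundant in red cells and is a common marker of blood in dissected tissue.

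Values are normalised read counts in CPM, the reads of a gene scaled to a common library total, with the TMM factors of edgeR applied by the authors. The pools held 17783655 to 29035529 reads on listed genes in controls and 24736761 to 34467710 in *Gata6STOP/+*. The fewest reads behind a globin value were 468, for a counting error of 4.62%, so counting error was small beside the spread between pools. *Gata6* itself had 315, 257 and 286 CPM in the control pools and 268, 203, 219 and 217 CPM in the *Gata6STOP/+* pools, so that *Gata6STOP/+* replicate 1 lay above control replicate 4. Its log2 fold change was -0.34 ± 0.10 (SE; adjusted *P*=0.389, limma). A stop allele need not lower the mRNA, so this level tests the label only in part. The study itself reported *Gata6* as significantly lower in its edgeR analysis of the RNA-seq, and lower by quantitative PCR. The OFT markers fixed for the tissue were present, as all 14 cardiomyocyte genes and all 14 cushion mesenchyme and neural crest genes were listed. Their summed levels were 20579.6 to 29270.3 CPM and 5521 to 7902 CPM over the pools. *Tfap2b* (0.336 to 2.86 CPM) and *Dlx5* (0.575 to 1.90 CPM) were low. *Nppa* had 174 CPM in control replicate 4, against 3.26 to 32.1 CPM in the other pools. Whether the make-up of the tissue differed between pools was not tested.

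The alpha-like genes lie together on chromosome 11 (GRCm38, plus strand), in the order *Hba-x* (32276400 to 32278116), *Hba-a1* (32283511 to 32284465) and *Hba-a2* (32296489 to 32297298). The beta-like genes lie on the minus strand of chromosome 7, in the direction of transcription *Hbb-y* (103851749 to 103853216), *Hbb-bh1* (103841637 to 103843164), *Hbb-bs* (103826534 to 103828096) and *Hbb-bt* (103812524 to 103813996). In both clusters the embryonic genes come first, nearest to the distant enhancers, and the adult genes follow. Each member has 3 exons in the transcript used. RefSeq promoter windows (GRCm38.p6, 250 bases before to 50 bases after the start of transcription) were matched for 6 of the 7 members. A pair from each cluster, embryonic and adult, is shown because the comparison of embryonic with adult genes is between these starts. Capitals mark exact matches, on either strand, to CACCC (a motif of Krüppel-like factors such as KLF1), to CCAAT (bound by NF-Y), to GATA hexamers (AGATAA, also with T first or G last), and to TATAA.
Hba-x, chr11:32276350-32276649, plus strand: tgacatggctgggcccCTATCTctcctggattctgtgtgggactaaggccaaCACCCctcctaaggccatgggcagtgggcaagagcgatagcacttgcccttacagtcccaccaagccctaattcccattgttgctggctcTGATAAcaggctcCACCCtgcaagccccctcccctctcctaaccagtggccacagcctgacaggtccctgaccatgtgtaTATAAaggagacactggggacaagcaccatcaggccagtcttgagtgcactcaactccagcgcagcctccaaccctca
Hba-a1, chr11:32283422-32283721, plus strand: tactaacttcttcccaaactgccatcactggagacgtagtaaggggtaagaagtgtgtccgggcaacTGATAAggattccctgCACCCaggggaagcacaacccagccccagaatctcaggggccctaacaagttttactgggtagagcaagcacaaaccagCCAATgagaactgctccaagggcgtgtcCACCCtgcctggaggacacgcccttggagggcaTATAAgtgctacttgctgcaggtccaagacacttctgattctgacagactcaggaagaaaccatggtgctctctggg
Hbb-y, chr7:103853158-103853457, minus strand: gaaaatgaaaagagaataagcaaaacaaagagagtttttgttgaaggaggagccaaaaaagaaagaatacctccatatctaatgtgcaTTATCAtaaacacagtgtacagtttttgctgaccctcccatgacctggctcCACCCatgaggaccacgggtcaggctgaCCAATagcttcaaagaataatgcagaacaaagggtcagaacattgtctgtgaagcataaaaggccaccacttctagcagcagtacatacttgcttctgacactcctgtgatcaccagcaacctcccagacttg
Hbb-bt, chr7:103813874-103814173, minus strand: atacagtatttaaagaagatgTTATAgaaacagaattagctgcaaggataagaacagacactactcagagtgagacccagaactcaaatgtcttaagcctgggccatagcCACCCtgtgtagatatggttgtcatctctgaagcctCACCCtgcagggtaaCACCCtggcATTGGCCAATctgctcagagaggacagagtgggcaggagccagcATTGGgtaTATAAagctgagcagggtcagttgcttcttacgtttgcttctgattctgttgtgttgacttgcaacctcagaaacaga
CACCC was found in all 6 windows, against 57.5% of 32851 promoter windows of the same length. CCAAT was found in 5 (37.4% of all windows) and was not found in that of *Hba-x*. A GATA hexamer was found in 5 (29.8% of all windows), among them *Hba-x* at -234 to -229 and -108 to -103, *Hba-a1* at -183 to -178 and *Hbb-y* at -162 to -157, counted from the start, and none was found in that of *Hbb-bt*. TATAA was found in 5 (24.9% of all windows), from -30 to -23 in the windows of *Hba-x*, *Hba-a1*, *Hba-a2*, *Hbb-bt* and *Hbb-bs*. TATAA was not matched in *Hbb-y*. In *Hbb-bt*, CCAAT was matched at both strands side by side, at -80 to -76 and -75 to -71, and TATAA also lay far upstream on the other strand, at -229 to -225. The windows of *Hba-a1* and *Hba-a2* share a run of 297 identical bases, while the longest run shared by *Hbb-bt* and *Hbb-bs* is 14 bases. These are matches of letters and say nothing of binding in this tissue.

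Within each cluster the adult genes are near copies of each other, which bears on their separate values. The coding sequences of *Hba-a1* and *Hba-a2* differ by 1 base, C381T, and those of *Hbb-bt* and *Hbb-bs* by 1 base, T417C, with the first gene's base first and positions counted from the A of the start codon. The 41 bases around each are shown, with the base that differs in capitals, because within the coding sequence a read tells the copies apart only there.
Hba-a1, coding bases 361 to 401: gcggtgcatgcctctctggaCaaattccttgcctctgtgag
Hba-a2, coding bases 361 to 401: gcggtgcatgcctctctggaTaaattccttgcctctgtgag
Hbb-bt, coding bases 397 to 437: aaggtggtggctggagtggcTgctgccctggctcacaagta
Hbb-bs, coding bases 397 to 437: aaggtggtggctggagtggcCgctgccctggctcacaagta
Of all 60-base windows of their transcripts, the length of the reads, 65.5% in *Hba-a1* and 84.6% in *Hba-a2* occurred in the other alpha gene. For the adult beta genes it was 57.6% in *Hbb-bt* and 65.2% in *Hbb-bs*. No such window was shared by *Hba-x*, *Hbb-y* or *Hbb-bh1*. The split within each adult pair therefore depends on how the authors' quantification divided shared reads and is uncertain, whereas the sum of each pair and the embryonic genes shared no such window with another member.

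Globin mRNA was present in every pool and was mostly embryonic. The 7 genes together took 0.293%, 0.247% and 0.597% of the TMM-adjusted library in control replicates 3, 4 and 5. They took 0.286%, 0.422%, 0.462% and 0.760% in *Gata6STOP/+* replicates 1, 3, 4 and 5. By mean CPM, *Hbb-y* was the 34th of all listed genes, *Hba-x* the 84th, *Hba-a1* the 108th and *Hbb-bs* the 5639th, so these genes spanned the range from among the most abundant mRNAs of the OFT to a middling level.

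Among the embryonic genes, *Hbb-y*, the epsilon-y chain, had 1089, 988 and 2348 CPM in control replicates 3, 4 and 5. It had 1137, 1665, 1761 and 3102 CPM in *Gata6STOP/+* replicates 1, 3, 4 and 5. Replicate 5 was the highest pool of each genotype, and the groups overlapped, with 1 *Gata6STOP/+* pool above the highest control.

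*Hba-x*, the zeta chain and the embryonic alpha-like gene, had 704, 526 and 1294 CPM in controls. In *Gata6STOP/+* it had 618, 970.1, 1066 and 1544 CPM. The low pools were control replicates 3 and 4 and *Gata6STOP/+* replicate 1, and again the groups overlapped.

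*Hbb-bh1*, the beta-h1 chain and known to decline before *Hbb-y* as primitive cells mature, had 307, 222 and 510.0 CPM in controls. It had 308, 472, 562 and 713 CPM in *Gata6STOP/+*. Here 2 of the *Gata6STOP/+* pools were above the highest control, and the lowest *Gata6STOP/+* pool was level with control replicate 3.

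Among the adult-type genes, *Hba-a1*, an adult alpha chain that primitive cells also make, had 542, 478 and 1224 CPM in controls. It had 517, 706, 831 and 1371 CPM in *Gata6STOP/+*. Its near copy *Hba-a2* had 193, 159 and 374 CPM in controls and 183, 269, 266 and 578 CPM in *Gata6STOP/+*. For both, 1 *Gata6STOP/+* pool, replicate 5, was above every control.

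The adult beta chains were much lower. *Hbb-bt* had 71.4, 77.9 and 159 CPM in controls and 75.0, 110.3, 97.7 and 211 CPM in *Gata6STOP/+*. *Hbb-bs* had 22.4, 22.1 and 63.8 CPM in controls and 25.3, 27.5, 31.1 and 84.9 CPM in *Gata6STOP/+*. In both genotypes the replicate 5 pool stood well above the rest.

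**Figure D1:**
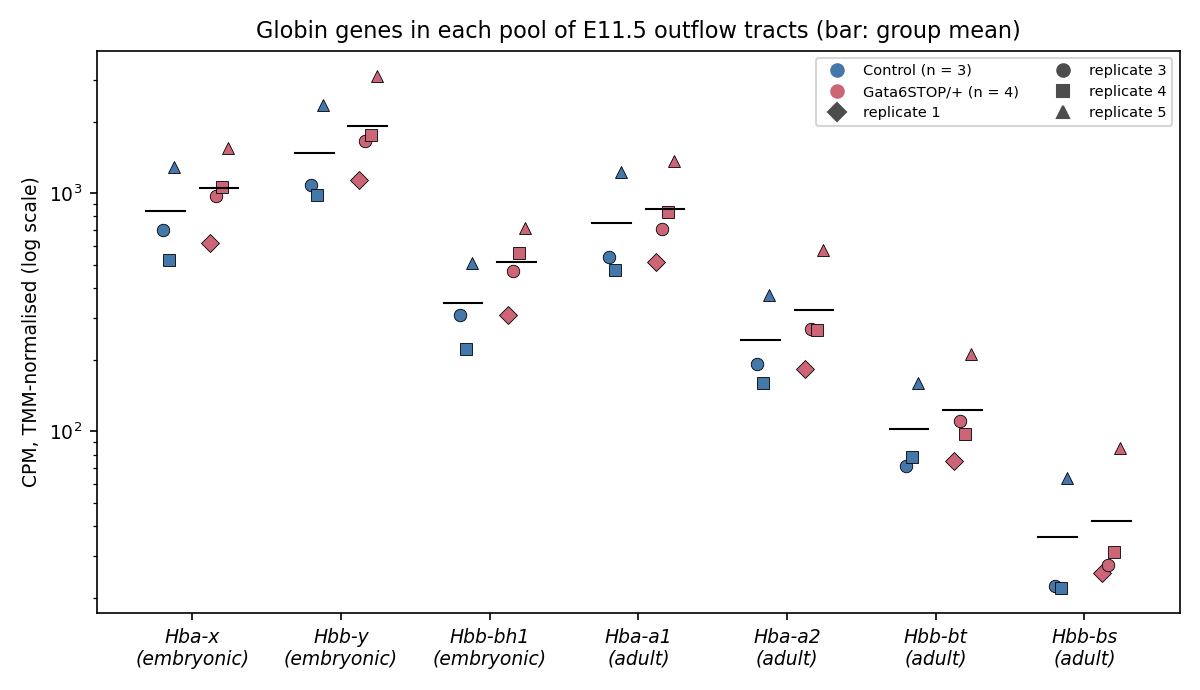
CPM of the 7 globin genes in each pool on a log axis, control pools in blue and *Gata6STOP/+* pools in red, with the replicate number as the marker and a bar at the group mean. Values are not divided by length, so heights compare pools within a gene. In every gene the highest pool of each genotype is replicate 5, and the genotypes overlap.

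All 7 globin genes moved together from pool to pool. Replicate 5 was the highest pool in both genotypes for 7 of 7 members, which was so for 5.53% of all listed genes. It was 1.93 (*Hbb-bh1*) to 2.87 times (*Hbb-bs*) the mean of the other pools in controls and 1.59 (*Hbb-bh1*) to 3.03 times (*Hbb-bs*) in *Gata6STOP/+*. From the lowest to the highest of the 7 pools, members ranged over 2.87 (*Hba-a1*) to 3.84 times (*Hbb-bs*). The coefficient of variation between pools was 42.6% to 66.5% in controls and 33.0% to 67.7% in *Gata6STOP/+*. As the tissue was measured in bulk, fewer red cells and less globin mRNA per red cell cannot be told apart.

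Per kilobase of transcript (CPM per kb), which sets genes of different length on a common scale, the level fell in the order *Hbb-y*, *Hba-x*, *Hba-a1*, *Hbb-bh1*, *Hba-a2*, *Hbb-bt* and *Hbb-bs*, and this was the order in 7 of 7 pools. Control means were 2330 ± 1197 CPM per kb for *Hbb-y* and 57.5 ± 38.2 for *Hbb-bs* (SD, n=3), and *Gata6STOP/+* means were 3027 ± 1322 and 67.2 ± 45.5 (SD, n=4). Within a pool *Hbb-y* was 1.42 to 1.84 times *Hba-x*, *Hba-a1* was 1.3 to 2.11 times *Hbb-bh1*, and *Hbb-bh1* was 1.12 to 1.91 times *Hba-a2*. *Hba-a2* was 2.60 to 3.48 times *Hbb-bt*, and *Hbb-bt* was 2.22 to 3.59 times *Hbb-bs*. The places of these 4 adult-type genes rest on the uncertain split of reads within each adult pair. An error of that split could recur in every pool, so the same order in all pools does not settle them. The place of *Hba-x* against *Hba-a1* depended on the length used. *Hba-x* was 1.28 to 1.66 times *Hba-a1* with the transcript of 579 bases, but with the other coding transcript of 801 bases it was 0.922 to 1.2 times that level and higher in 4 of 7 pools, so these neighbours cannot be ordered.

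The make-up of globin mRNA was far steadier than its amount. On the per-length scale the 3 embryonic genes made up 71.1% to 75.0% of globin mRNA over the 7 pools (69.1% to 73.1% with the longer *Hba-x* transcript as length). *Hbb-y* gave 36.6% to 40.3%, *Hba-x* 21.9% to 25.9% and *Hbb-bh1* 8.73% to 12.4%. Of the adult-type genes, *Hba-a1* gave 14.9% to 18.4%, *Hba-a2* 6.50% to 8.57%, *Hbb-bt* 1.88% to 2.81% and *Hbb-bs* 0.647% to 1.11%. The split within each adult pair is uncertain, since its genes share reads.

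The clusters differed in how far they were embryonic. In the alpha-like cluster the adult genes *Hba-a1* and *Hba-a2* made up 48.0%, 51.6% and 52.1% of the level in controls. In *Gata6STOP/+* they made up 50.1%, 47.1%, 47.6% and 53.0%. In the beta-like cluster the adult genes *Hbb-bt* and *Hbb-bs* made up 5.82%, 7.06% and 6.74% in controls and 6.01%, 5.57%, 4.85% and 6.70% in *Gata6STOP/+*. The adult share was higher in the alpha-like cluster in every pool, and with the longer *Hba-x* transcript as length it was 55.2% to 60.9% there. The 2 clusters carry different genes, so this sets side by side levels that share each library. Bulk tissue does not show whether the same cells made the mRNA of both clusters.

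**Figure D2:**
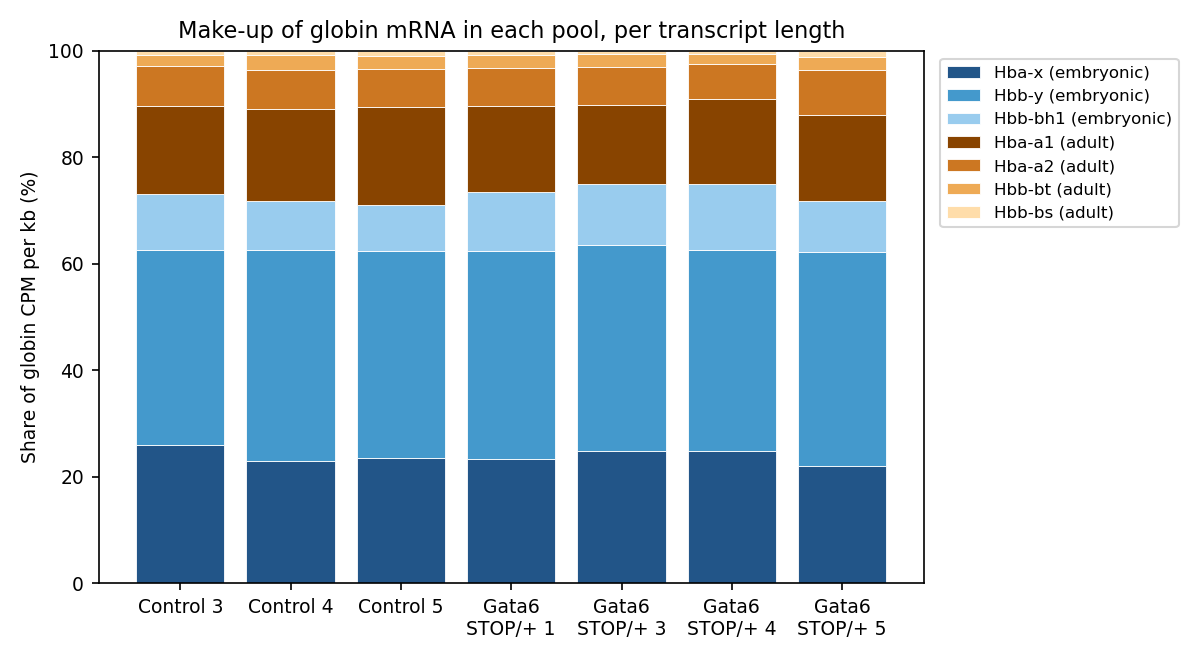
Share of each globin gene in the summed CPM per kb of all 7, in percent, 1 stacked bar per pool, embryonic genes in blue and adult-type genes in brown. The embryonic share lies between 71.1% and 75.0% in all 7 pools although the amount of globin mRNA differs.

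For these genes, the genotype comparison asks whether the OFT of *Gata6STOP/+* embryos held another amount or another mix of globin mRNA. All 7 members had a higher estimate in *Gata6STOP/+*, against 49.8% of all listed genes, and 0 were called by limma at the adjusted threshold of 0.05, as well as 0 at an unadjusted *P* under 0.05. The log2 fold change was 0.59 ± 0.29 (SE) for *Hbb-bh1* (95% interval -0.053 to 1.23, unadjusted *P*=0.0685, adjusted *P*=0.654, limma), the highest of the members. It was 0.40 ± 0.34 for *Hbb-y* (adjusted *P*=0.805, limma) and 0.35 ± 0.31 for *Hba-x* (adjusted *P*=0.816, limma). Among the adult-type genes it was 0.39 ± 0.36 for *Hba-a2*, 0.25 ± 0.33 for *Hbb-bt*, 0.24 ± 0.34 for *Hba-a1* and 0.22 ± 0.44 for *Hbb-bs*, with adjusted *P*-values of 0.819 to 0.928 (limma). Since members move together from pool to pool, their shared direction counts as 1 observation, not 7.

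The same test called 0 of all 14732 genes, a share of 0%, while 1187 (8.06%) had an unadjusted *P* under 0.05. On the recovered reads, DESeq2 called 88 genes (0.597%) and edgeR's likelihood ratio test 105 (0.713%), and each called 0 members. The intervals of the members reached from -0.75 (*Hbb-bs*) to 1.23 (*Hbb-bh1*) on the log2 scale, and all 7 included 0. Of the 7 members, 0 had no overlap between the genotypes, against 8.47% of all genes (4.31% with *Gata6STOP/+* higher). None of these fits had a term for the shared replicate number (a replicate block), whose meaning the labels do not give. With the block, edgeR's likelihood ratio test called 6 members and 0.801% of all genes. Limma with the block called 1 member and 0.095% of all genes, and edgeR's quasi-likelihood test 0 members and 0.0882%.

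The size of the difference, and for some members its direction, depended on single pools. Without *Gata6STOP/+* replicate 5 the estimates ran from -0.18 (*Hbb-bs*) to 0.41, and *Hba-a1* (-0.021) and *Hbb-bt* (-0.044) also turned lower. Without control replicate 4 they ran from -0.040 (*Hbb-bs*) to 0.31, and *Hba-a1* was at -0.020. Without control replicate 3 *Hbb-bs* was at -0.029. The estimates ran from 0.39 to 0.81 without *Gata6STOP/+* replicate 1, which has no same-numbered control, and 0 members were called. Without control replicate 5 they ran from 0.61 to 0.91, and 3 members were higher without overlap between genotypes, against 16.2% of all genes without overlap and 8.23% in that direction. With both pools numbered 5 left out, an alternative chosen after the values were seen, the estimates ran from 0.32 to 0.73 and 0 members were called. Then 3 of 7, *Hbb-y*, *Hbb-bh1* and *Hbb-bs*, had every *Gata6STOP/+* pool above both controls, against 20.6% of all genes without overlap and 10.5% in that direction.

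**Figure D3:**
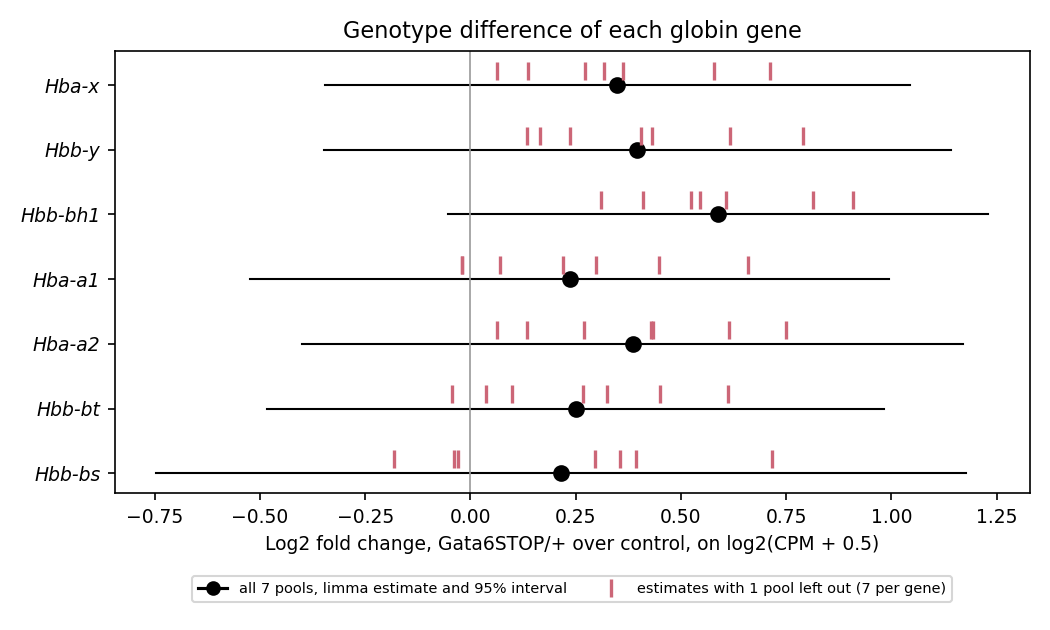
Log2 fold change of each globin gene, *Gata6STOP/+* over control, on log2(CPM + 0.5). Black points and lines give the limma estimate and its 95% interval over all 7 pools, and red ticks the 7 estimates with 1 pool left out. Every interval includes 0, and the ticks of *Hba-a1*, *Hbb-bt* and *Hbb-bs* fall on both sides of 0.

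For the summed level and the mix, 9 values were compared over pools by exact two-sided permutation tests, in which the 35 ways to part 7 pools allow no *P* below 0.0571, so none could pass 0.05. The summed level of all 7 globins was 3792 ± 1903 CPM in controls (SD, n=3) and 4825 ± 1998 CPM in *Gata6STOP/+* (SD, n=4). Its log2 difference was 0.37 (exact permutation *P*=0.514, adjusted over the 9 values *P*=0.771).

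The ratio of embryonic to adult globin mRNA was 2.73, 2.54 and 2.46 in controls and 2.76, 2.99, 2.98 and 2.54 in *Gata6STOP/+*. The *Gata6STOP/+* mean was higher by 0.13 on the log2 scale, with 3 of 4 pools above every control (exact permutation *P*=0.114, adjusted *P*=0.514). Within the beta-like genes the ratio was 14.4 ± 1.58 in controls (SD, n=3) and 16.5 ± 2.40 in *Gata6STOP/+* (SD, n=4), a log2 difference of 0.19 (exact permutation *P*=0.229, adjusted *P*=0.514). Within the alpha-like genes it was 0.980 ± 0.0894 (SD, n=3) and 1.03 ± 0.108 (SD, n=4), a log2 difference of 0.066 (exact permutation *P*=0.629, adjusted *P*=0.771). None of these ratios separated the genotypes.

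The balance of alpha-like to beta-like mRNA was the one value of the 9 without overlap between genotypes. It was 0.991, 0.909 and 0.957 in controls, and 0.874, 0.880, 0.903 and 0.873 in *Gata6STOP/+*. All 4 *Gata6STOP/+* pools lay below all 3 controls, although *Gata6STOP/+* replicate 4 was close to control replicate 4. The log2 difference was -0.11, for means of 0.952 ± 0.0414 (SD, n=3) and 0.882 ± 0.0141 (SD, n=4), with an exact permutation *P* of 0.0571, the smallest the design allows, and an adjusted *P* of 0.514. With 1 pool left out in turn the difference lay between -0.14 and -0.080, where the lack of overlap fixed its direction in advance. The difference was -0.12 with the union of all exons as gene length and -0.11 with the longer *Hba-x* transcript. Without both pools numbered 5 it was -0.0997 (exact permutation *P*=0.20, the smallest possible with 5 pools).

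Within pairs of related genes the ratios overlapped between the genotypes. The *Hbb-y* to *Hbb-bh1* ratio, within the embryonic beta genes, was 3.43, 4.30 and 4.46 in controls and 3.57, 3.41, 3.03 and 4.21 in *Gata6STOP/+*, with a log2 difference of -0.19 (exact permutation *P*=0.229, adjusted *P*=0.514). Replicate 5 had the highest ratio of each genotype. The ratios within the adult pairs, which share reads, had log2 differences of -0.15 for *Hba-a1* to *Hba-a2* (exact permutation *P*=0.286, adjusted *P*=0.514) and 0.032 for *Hbb-bt* to *Hbb-bs* (exact permutation *P*=0.971, adjusted *P*=0.971).

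**Figure D4:**
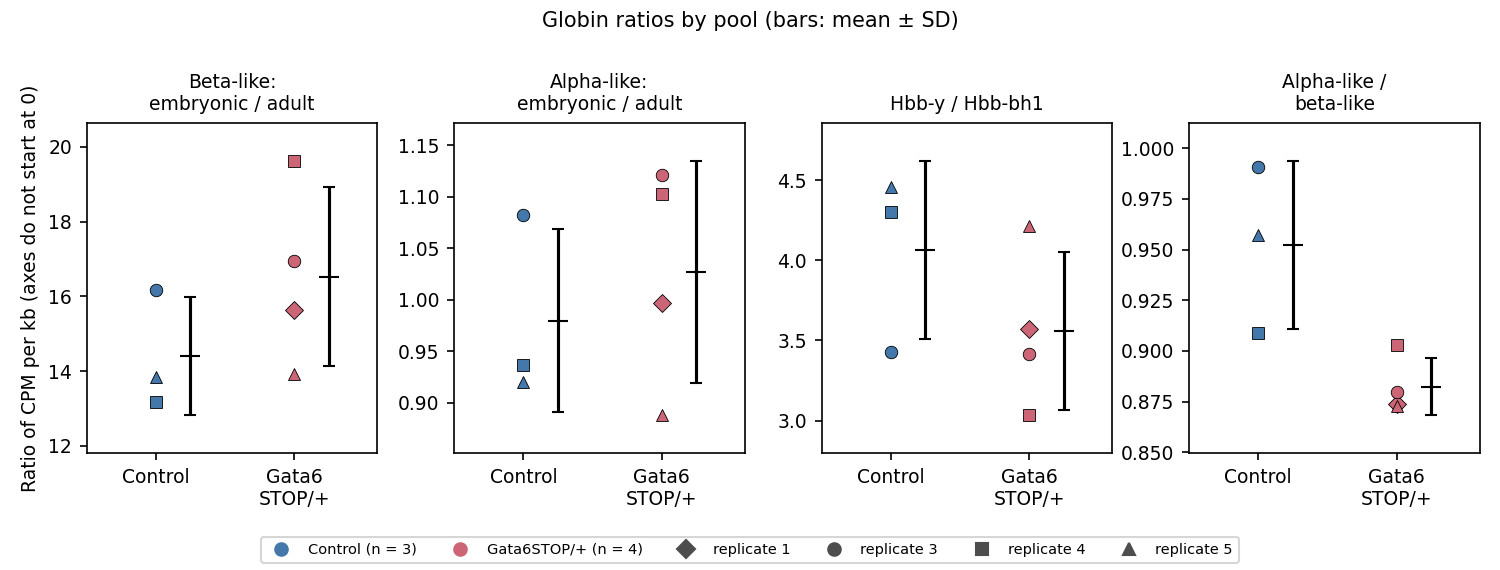
Ratios of CPM per kb by pool for embryonic to adult beta-like genes, embryonic to adult alpha-like genes, *Hbb-y* to *Hbb-bh1* and alpha-like to beta-like genes, each on its own axis that does not start at 0, with mean ± SD. The genotypes overlap in the first 3 and do not in the last, where *Gata6STOP/+* pools lie between 0.873 and 0.903 and controls between 0.909 and 0.991.

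Red cell genes were among the genes nearest to the globins in pool-to-pool pattern. The mean globin profile, as log2 values centred on the 7 pools, ran from -0.69 in control replicate 4 to 0.97 in *Gata6STOP/+* replicate 5. Among the other genes whose mean reached 5 CPM, the 5 nearest to it by root-mean-square difference over the 7 pools were *Car2* (0.10), *Slc4a1* (0.118), *Ermap* (0.120), *Alas2* (0.127) and *Slc30a10* (0.145), where the median of genes was 0.577. *Car2* codes for a carbonic anhydrase, *Slc4a1* for the band 3 anion exchanger of the red cell membrane, *Ermap* for a red cell surface protein, *Alas2* for the red cell enzyme that starts heme synthesis, and *Slc30a10* for a manganese transporter. The members themselves lay at 0.036 (*Hbb-y*) to 0.233 (*Hbb-bs*).

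*Alas2* had 17.5, 17.7 and 38.7 CPM in controls and 21.6, 30.1, 35.1 and 58.0 CPM in *Gata6STOP/+*. *Slc4a1* had 49.1, 51.3 and 98.2 CPM in controls and 57.6, 73.9, 86.5 and 142 CPM in *Gata6STOP/+*. As in the globins, replicate 5 was the highest pool of each genotype, and control replicates 3 and 4 and *Gata6STOP/+* replicate 1 were the lowest. Both genes were chosen for their likeness to the globins over these pools, so this order follows from the choice and is no separate evidence.

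**Figure D5:**
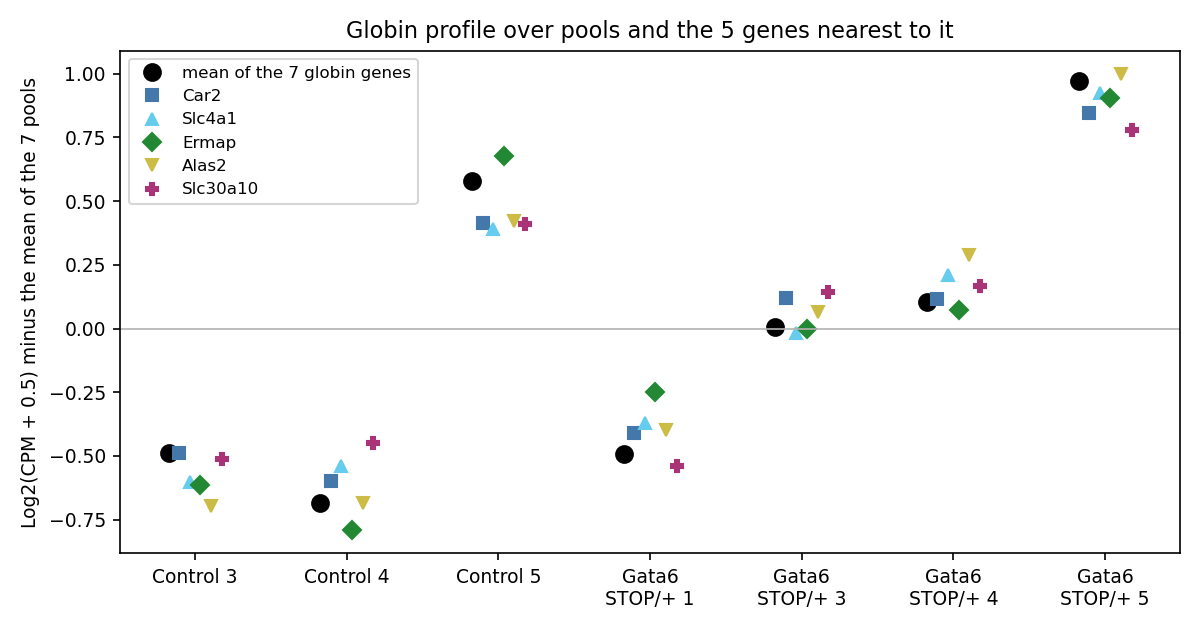
Log2(CPM + 0.5) of the globins (mean of 7 genes, black) and of the 5 genes nearest to them, each minus its mean over the 7 pools, by pool. All 6 series are lowest in control replicates 3 and 4 and *Gata6STOP/+* replicate 1 and highest in *Gata6STOP/+* replicate 5. The 5 genes were chosen for this likeness.

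A list of 20 genes typical of red cells (red cell core) had 17 listed members. Of these 16 had a higher estimate in *Gata6STOP/+*, 0 were called (0% of all genes), 1 had an unadjusted *P* under 0.05, and the median log2 fold change was 0.38, against -0.00073 for all genes. Replicate 5 was the highest pool in both genotypes for 15 of the 17. *Ahsp*, *Cldn13* and *Tspo2* were not listed, and no listed gene was at 0 in any pool. The summed level was 431 to 609 CPM in controls and 425 to 739 CPM in *Gata6STOP/+*. Its most abundant genes were *Tmod1*, which caps actin filaments in red cells and in heart muscle alike (237 ± 3.04 CPM, SD, n=3, and 242 ± 32.2, SD, n=4), and *Slc25a37*, the mitochondrial iron importer (77.3 ± 25.6, n=3, and 100.1 ± 28.9, n=4). The ratio of summed globin CPM to the geometric mean of the core genes was 338 ± 41.6 in controls and 351 ± 40.2 in *Gata6STOP/+*, a log2 difference of 0.057 (exact permutation *P*=0.686, adjusted *P*=0.771, n=3 and 4).

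Of 27 genes of the red cell membrane and cytoplasm, 24 were listed, 19 had a higher estimate, 0 were called (1 at an unadjusted *P* under 0.05) and the median log2 fold change was 0.22. Replicate 5 was highest in both genotypes for 18 of the 24. The most abundant, which other cells use too, were *Prdx2*, a peroxidase (383 ± 23.9 and 369 ± 17.6 CPM), *Tmod1*, and *Epb41*, the membrane skeleton protein 4.1 (129 ± 5.10 and 128 ± 14.2 CPM, SD, n=3 and 4). *Tmod1* spanned 236 to 241 CPM in controls and 202 to 281 CPM in *Gata6STOP/+*. DESeq2 and both edgeR tests without a block also called 0 genes of the red cell, heme and regulator lists.

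Heme synthesis and iron genes numbered 19, all listed, of which 12 had a higher estimate, 0 were called (2 at an unadjusted *P* under 0.05) and the median was 0.019. Replicate 5 was the highest pool in both genotypes for 10 of the 19. The most abundant were the ferritin chains *Ftl1* (1007 ± 55.9 and 963 ± 76.4 CPM) and *Fth1* (369 ± 28.0 and 364 ± 32.6 CPM) and the transferrin receptor *Tfrc* (SD, n=3 and 4 throughout). *Tfrc* had 149.9, 146 and 165 CPM in controls and 174, 169, 183 and 178 CPM in *Gata6STOP/+*. Its groups did not overlap, as in 8.47% of all genes, and its log2 fold change was 0.20 ± 0.060 (SE, adjusted *P*=0.419, limma). Dividing cells of many kinds express *Tfrc*, and its profile did not have replicate 5 as the highest pool of *Gata6STOP/+*.

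The regulators of globin genes were listed in full, 20 of 20, of which 16 had a higher estimate, 0 were called (0 at an unadjusted *P* under 0.05) and the median was 0.084. The 3 most abundant were *Chd4*, a chromatin remodeller of the NuRD complex (611 ± 38.9 and 640 ± 35.3 CPM), *Zfpm1*, the GATA cofactor FOG1 (232 ± 45.8 and 202 ± 17.9 CPM), and *Ldb1*, which links enhancers to promoters (215 ± 16.8 and 212 ± 9.67 CPM; SD, n=3 and 4). All 3 are used in many tissues. Other regulators are named beyond the rule, for their roles, after their values were seen. *Klf1*, the red cell activator of adult beta-globin, had 5.23, 3.0 and 7.95 CPM in controls and 4.21, 6.09, 6.26 and 7.12 CPM in *Gata6STOP/+*. *Gata1*, the master factor of red cells, had 2.45, 2.31 and 3.08 CPM in controls and 2.28, 2.43, 3.74 and 4.27 CPM in *Gata6STOP/+*. In both, replicate 5 was the highest pool of each genotype, which was so for 6 of the 20 regulators. *Bcl11a* and *Sox6*, repressors of embryonic globin genes in definitive cells that other cells also use, had 28.8 ± 1.98 and 44.5 ± 3.30 CPM in controls (SD, n=3) and 31.9 ± 4.81 and 46.7 ± 3.99 CPM in *Gata6STOP/+* (SD, n=4).

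Of 8 other genes of the globin fold, 3 were listed. *Mb*, myoglobin, the oxygen store of muscle, had 29.2, 41.6 and 24.6 CPM in controls and 13.2, 24.0, 17.8 and 22 CPM in *Gata6STOP/+*. All 4 *Gata6STOP/+* pools lay below all 3 controls, and the log2 fold change was -0.71 ± 0.21 (SE, adjusted *P*=0.385, limma), against 8.47% of genes without overlap. DESeq2 called it (adjusted *P*=0.0478), while edgeR's likelihood ratio (adjusted *P*=0.0769) and quasi-likelihood tests (adjusted *P*=0.374) did not. Cardiomyocyte markers had a summed level of 25535 to 28589.7 CPM in controls and 20579.6 to 29270.3 CPM in *Gata6STOP/+*, 11 of 14 had a lower estimate and limma called 0. Their part in the level of *Mb* was not tested. *Cygb*, cytoglobin, had 1.33 ± 0.542 and 1.40 ± 0.352 CPM, and *Hbq1b*, a theta-globin gene of the alpha cluster, had 0.782 ± 0.357 and 1.28 ± 0.433 CPM (SD, n=3 and 4). Replicate 5 was the highest pool in both genotypes for *Hbq1b*, as for the members.

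Markers of other cells had other patterns over the pools. Of 15 macrophage genes, 5 had a higher estimate and the median log2 fold change was -0.094, with summed levels of 96.9 to 135 CPM in controls and 77.3 to 182 CPM in *Gata6STOP/+*. Of 12 megakaryocyte and platelet genes 10 were listed, all 10 had a higher estimate and the median was 0.14. Summed levels were 83.2 to 93.0 CPM and 92.5 to 127 CPM, of which *Itgb3* gave 42.2 to 52.4 and 52.4 to 65.5 CPM. The rise was not seen in every pool. The mean log2(CPM + 0.5) of this list was 2.85 and 2.48 in *Gata6STOP/+* replicates 1 and 3. It was 2.07 and 2.10 in replicates 4 and 5, below the controls (2.17 to 2.27). Of 15 endothelial and endocardial genes 12 had a higher estimate, with a median of 0.11 and summed levels of 1182 to 1537 CPM and 1284 to 1564 CPM. Of the 14 cushion mesenchyme and neural crest genes 3 had a higher estimate, with a median of -0.10. In each of these 4 lists and in the cardiomyocyte list limma called 0 genes, with 0 to 3 at an unadjusted *P* under 0.05, and DESeq2 called 1, the mesenchymal receptor gene *Pdgfra* (log2 fold change -0.50, adjusted *P*=0.0408). In these lists no listed gene was at 0 in any pool, and replicate 5 was the highest pool in both genotypes for 0 genes. The part of blood within the dissected tissue in the globin levels was not tested.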

How the data were processed

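RNA of pooled E11.5 OFTs (3 control and 4 *Gata6STOP/+* pools, grouped by the labels) was sequenced as polyadenylated, strand-specific libraries with 60-base single-end reads. The authors trimmed reads with Cutadapt, quantified them by RSEM (GRCm38, Ensembl annotation), dropped genes that did not reach 1 CPM in 3 or more samples and applied TMM normalisation in edgeR. The deposited values are CPM after that normalisation.

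Values were tested with limma 3.58.1 (R 4.3.3; trend, two-sided, no covariates) on log2(CPM + 0.5), with Benjamini-Hochberg adjustment over 14732 genes and a threshold of 0.05. Fold changes on this scale understate changes of low genes. In all pools 100% of values were whole multiples of 1 read (tolerance 0.01 reads), and edgeR 4.0.16 and DESeq2 1.42.0 were run on these reads as alternatives. The 9 single values were tested by exact permutation (scipy 1.17.1). The fits were tested on simulated reads, drawn independently for each gene and pool. The permutation test was tested on a constructed case of complete separation with a known *P*. Lengths, for CPM per kb, were those of the coding transcript with the longest coding sequence in GENCODE M21, in which 14716 listed genes were found. Genes named were the members, *Gata6*, the 3 most abundant genes of each pathway list and of the red cell core list, and the 5 genes with the nearest profile. Members and lists were chosen with earlier results of these data known. Alternatives were other pseudocounts (0.1, 2), a mean of at least 5 CPM, median-of-ratios scaling, a replicate block, other lengths and each pool left out. Depths and their precision are given with the values, and no per-sample column was left out.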

Additional observations from a re-analysis of the deposited data

Results flagged for a closer look

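Of 16 values checked in the group of 4 *Gata6STOP/+* pools for a single pool far from the others, 1 stood out. *Hbb-bs* had 84.9 CPM in *Gata6STOP/+* replicate 5, against 25.3, 27.5 and 31.1 CPM in the other 3 pools. The gap to the nearest pool was 0.903 of the whole range, above Dixon's 95% critical value for 4 samples. Chance flags about 1 in 20 such groups, and the group of 3 controls was not checked, where *Hbb-bs* was likewise highest in replicate 5, at 63.8 CPM. The value rested on 2919 reads. Replicate 5 was the highest *Gata6STOP/+* pool for all 7 members, and in this gene, which shares reads with *Hbb-bt*, it was 3.03 times the mean of the others.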

How the results depend on the processing

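The member estimates stayed positive under every setting that kept all 7 pools, and the embryonic genes and *Hba-a2* also with any pool left out. With 1 pool left out, *Hba-a1* ran from -0.021 to 0.66, *Hbb-bt* from -0.044 to 0.61 and *Hbb-bs* from -0.18 to 0.72. The *Hbb-bt* to *Hbb-bs* ratio ran from -0.11 to 0.14 and the globin to core ratio from -0.013 to 0.15, and without both pools numbered 5, added later, the former was -0.0040. Members without overlap numbered 0 to 3 with 1 pool left out (3 without control replicate 5), where 11.1% to 19.1% of all genes had none, and 3 without both, where 20.6% of all genes had none. Over all genes, calls numbered 1 with pseudocount 0.1, 88 with DESeq2, 105 with edgeR's likelihood ratio test and 0 to 13 with 1 pool left out (13 without control replicate 4). The other settings without a block called 0 genes, edgeR's quasi-likelihood test among them, with 1177 at an unadjusted *P* under 0.05. The cause was not tested.

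The labels do not say whether the replicate numbers shared by the genotypes pair the pools. Over all listed genes, deviations of same-numbered pools from their group means correlated at -0.0084, -0.12 and -0.0016 for numbers 3, 4 and 5. No pool correlated best with its own number. Among the members, however, replicate 5 was the highest pool in both genotypes for all 7. Correlations from so few pools cannot decide whether the pools were paired. With the replicate block, limma called 14 genes (0.095%) and 1 member (*Hba-a2*, adjusted *P*=0.0388), edgeR's quasi-likelihood test 13 genes (0.0882%) and 0 members, and its likelihood ratio test 118 genes (0.801%) and 6 members, all but *Hba-a1* (adjusted *P*=0.0792). Member estimates with the block ran from 0.39 to 0.81. The block takes nothing from *Gata6STOP/+* replicate 1, which has no partner. As paired values, the 9 single values cannot give a *P* below 0.25 by exact sign flips over 3 pairs, and none changed direction.

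With 3 and 4 pools, the exact permutation test lets no single value pass the threshold, and counting error was at most 4.62% for a member. Lengths change the ratios in level but changed no direction of a genotype difference.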
